A study of Mus musculus with 6 samples.

Results

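The 10 genes described here make up the first steps of interferon signalling: Ifnb1 and Ifng, which encode interferon ligands, the receptor chains Ifnar1, Ifnar2, Ifngr1 and Ifngr2, the Janus kinases Jak1, Jak2 and Tyk2, and the feedback inhibitor Socs1. They were taken by name from the 54532 genes in the deposited tables. Each of the 6 libraries holds RNA from the cervical cord of 1 C57BL/6 mouse. The 3 imiquimod mice had received 50 mg of cream with 5% imiquimod, a Toll-like receptor 7 agonist, daily for 2 days on the shaved nape, where it produces a psoriasis-like dermatitis. The 3 vehicle mice had received the same mass of vehicle cream at the same site and on the same schedule, so shaving and cream are common to both groups. No source used here states the age or sex of the mice or the hour of tissue collection. Effects of the skin disease and of absorbed drug cannot be told apart in this design.

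Type I interferons, such as interferon beta, bind a receptor built of the IFNAR1 and IFNAR2 chains, to which the kinases TYK2 and JAK1 are attached. Interferon gamma, the type II interferon of NK and T cells, binds IFNGR1, which recruits IFNGR2 and activates JAK1 and JAK2. The kinases phosphorylate STAT proteins, which enter the nucleus, with IRF9 in the type I pathway, and switch on interferon-stimulated genes. One of these is Socs1, whose product blocks the kinases and closes the loop. In the spinal cord the receptors are found on neurons and glia, and microglia and astrocytes can themselves make interferon beta.

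Values are FPKM, which count sequenced fragments relative to exon length and to the size of the library. Recovered fragments numbered 18172205 to 20670335 per vehicle library and 21238806 to 23196686 per imiquimod library, so every imiquimod library was deeper (two-sided exact permutation test, p = 0.1, which is the lowest value possible with 3 libraries a group). The summed level of 10 cervical Hox genes was 226 to 239 FPKM in vehicle and 239 to 285 FPKM in imiquimod libraries, while 6 of 9 lumbar and sacral Hox genes were listed at 0 in all vehicle libraries and 6 of 9 in all imiquimod libraries. The 9 summed to 0.391 to 0.563 FPKM in vehicle and 0.1125 to 0.227 FPKM in imiquimod libraries. Most of that was Hoxa10, too low to test, with 23, 32 and 25 fragments in vehicle and 14, 11 and 6 in imiquimod libraries. The Hoxa10 values in FPKM did not overlap between groups. Hoxb8 made up the largest part of the cervical sum and rose (0.54 ± 0.09, limma adjusted p = 0.0116), Hoxa4 fell (-0.38 ± 0.10, limma adjusted p = 0.044), and the other 8 did not pass. Of these, Hoxc8 set libraries of 1 group apart, at 16.9, 16.6 and 15.0 FPKM in vehicle and 1.52, 11.9 and 1.63 FPKM in imiquimod libraries. Gapdh was 26.4 FPKM in imiquimod replicate 3 against 1.56 to 2.15 FPKM in the other 5. Genes were tested with limma on log2(FPKM + 0.1), and called at a Benjamini-Hochberg adjusted p under 0.05 over the 16513 genes with a mean of at least 0.5 FPKM in either group. Changes are log2(FPKM + 0.1) differences, imiquimod minus vehicle, ± SE, a scale that understates the change of low genes.

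Of the 10 genes, 1 rose, none fell, 7 did not pass the test and the 2 ligands were too low to enter it. The single call was lost in 11 of 18 alternative settings, among them 5 of the 6 that leave out 1 library, and without imiquimod replicate 2 it became 3 calls. The gene that rose was Ifngr1, the ligand-binding chain of the interferon gamma receptor, at 1.35-fold (95% interval 1.12 to 1.62). In bulk tissue such as this, more cells of a type and more RNA per cell cannot be told apart. The rest of the receptor and kinase genes stood within 1.5-fold of vehicle, from 0.900-fold for Jak1 to 1.41-fold for Ifnar2, and the highest fold, 2.49, was that of Socs1, which did not pass. Over all genes tested, 14.1% were called, 8.74% as higher and 5.34% as lower, so 1 call among 8 genes is close to the background. In 4 of the 8 (Ifnar2, Ifngr1, Jak2 and Socs1) all imiquimod libraries lay above all vehicle libraries, and in none below. Of all genes tested, 37.9% had groups that did not overlap, 19.8% with imiquimod higher and 18.0% with imiquimod lower. The median log2 change of the 8 was 0.15, beside -0.01 for all genes tested. The count of 0 lower genes was 0 also at an unadjusted limma p under 0.05 and with voom on the recovered fragments, while 3 of the 8 were higher at that unadjusted p (Ifngr1, Ifnar2 and Socs1). The share of all genes past that unadjusted p was not computed, so these counts have no background beside them. Socs1 also entered the test through the imiquimod libraries alone.

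**Figure D1:**
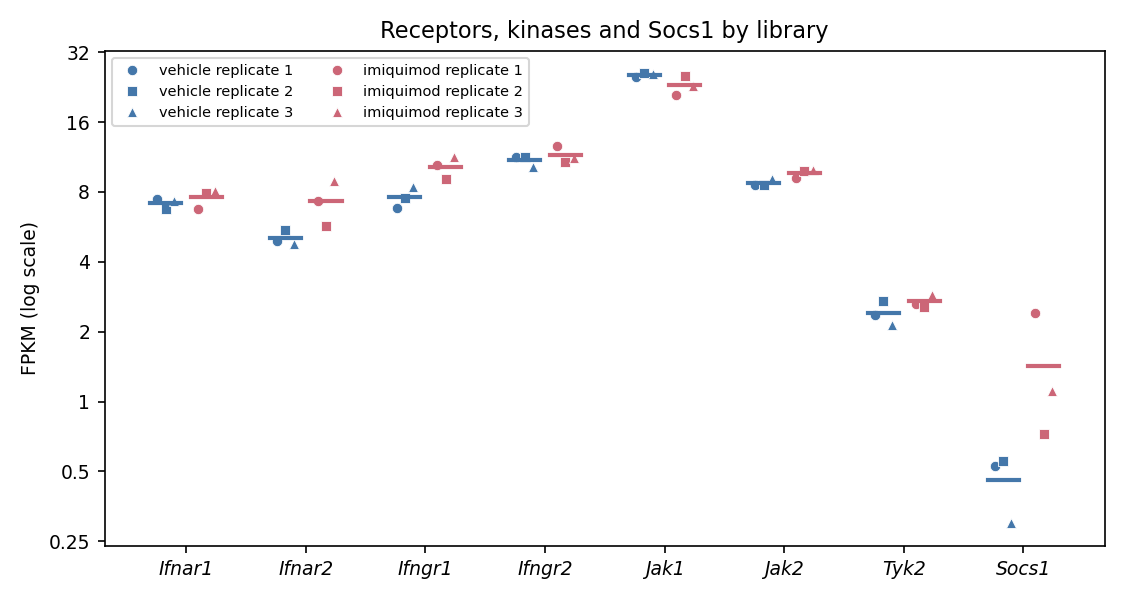
FPKM on a log axis of the 8 tested genes in each library, with vehicle libraries in blue, imiquimod libraries in red, a marker shape for each replicate number and a line at each group mean; Ifnb1 and Ifng, at or near 0, are not drawn. The imiquimod points lie above all vehicle points for Ifnar2, Ifngr1, Jak2 and Socs1, and imiquimod replicate 2 is the lowest imiquimod library for Ifnar2, Ifngr1, Ifngr2, Tyk2 and Socs1.

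Promoter sequences are shown for Socs1, Ifnar2 and Ifngr1, the 3 genes with the smallest p. Each line gives the 250 bases before the RefSeq start site, read 5′ to 3′ on the gene's strand, on the build GRCm38.p6. They lie at chr16:10785537-10785786 on the minus strand for Socs1, chr16:91372533-91372782 on the plus strand for Ifnar2 and chr10:19591699-19591948 on the plus strand for Ifngr1. Capitals mark matches to the core of the interferon-stimulated response element (GAAA, then 2 free bases, then GAAA), the site bound by the complex of STAT proteins with IRF9, or to that of the gamma-activated sequence, TTCNNNGAA, bound by STAT dimers.
Socs1: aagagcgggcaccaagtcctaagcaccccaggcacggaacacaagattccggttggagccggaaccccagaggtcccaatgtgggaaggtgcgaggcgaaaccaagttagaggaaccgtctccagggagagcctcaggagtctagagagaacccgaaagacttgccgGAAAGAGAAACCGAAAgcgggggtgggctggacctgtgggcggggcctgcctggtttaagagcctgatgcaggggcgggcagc
Ifnar2: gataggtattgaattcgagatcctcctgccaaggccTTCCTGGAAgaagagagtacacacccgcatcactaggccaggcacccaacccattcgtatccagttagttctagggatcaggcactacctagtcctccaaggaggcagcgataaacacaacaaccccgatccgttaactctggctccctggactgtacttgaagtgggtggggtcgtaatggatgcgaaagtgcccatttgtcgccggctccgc
Ifngr1: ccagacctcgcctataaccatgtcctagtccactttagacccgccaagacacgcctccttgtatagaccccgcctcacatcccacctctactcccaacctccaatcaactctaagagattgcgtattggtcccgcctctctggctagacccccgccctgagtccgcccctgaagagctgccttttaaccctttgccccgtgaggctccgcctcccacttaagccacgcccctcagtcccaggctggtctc
The Socs1 stretch in capitals holds GAAAGAGAAA, at positions -83 to -74 from the start site, and GAAACCGAAA, at -77 to -68, which overlap each other. Ifnar2 holds TTCCTGGAA at -214 to -206, and Ifngr1 holds neither core. All 10 genes had a RefSeq window of 300 bases, 250 before and 50 after the start. Both strands were searched, and the second core reads the same on both when its middle bases are free. Socs1 was the only 1 of the 10 with the first core, which 3.44% of all 32851 such windows hold. The second core was found in Ifng (TTCAGAGAA), Ifnar1 (TTCACGGAA, across the start site) and Ifnar2, and in 8.30% of all windows. A match is a description of letters, and its absence says nothing about binding of a factor outside the window.

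The interferon ligands were at the limit of detection. Ifnb1 (ENSMUSG00000048806, chr4:88522025-88522774, minus strand, a single exon), which encodes interferon beta, had 0 fragments in each vehicle library and 3, 2 and 0 fragments in the imiquimod libraries, or 0.194, 0.119 and 0 FPKM. Ifng (ENSMUSG00000055170, chr10:118441046-118445892, plus strand), which encodes interferon gamma, had 0, 0 and 1 fragments in vehicle and 1 in each imiquimod library. Every one of these values is at or under 3 fragments, a floor of 0.171 to 0.230 FPKM for Ifnb1 and 0.0987 to 0.133 FPKM for Ifng, so no fold is given and a difference was not detectable at this depth. Fitted without the filter on low values, limma gave an adjusted p of 0.291 for Ifnb1 and of 0.549 for Ifng. For Ifng, 25.9% of exon bases are shared with the predicted gene Gm49751 on the same strand. Gm49751 had 2 fragments in imiquimod replicate 2 and 0 in each other library. Reads over the shared bases could have been counted to either gene or to none.

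The other interferon genes were as low. Of 21 ligand genes in all, 19 of them beside Ifnb1 and Ifng, 15 were listed at 0 in every library. Of the 6 with any fragment (Ifnb1, Ifng, Ifna2, Ifna11, Ifnk and Ifnz), none had more than 3 fragments in a library. Summed over the 21 genes, the vehicle libraries held 2, 0 and 2 fragments and the imiquimod libraries 6, 3 and 3. The groups did not overlap in this sum, but each total is a handful of fragments from deeper imiquimod libraries. The interferon alpha genes are near-identical copies, so reads that match several of them may be missing.

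The type I receptor chains differed in their values. Ifnar1 (ENSMUSG00000022967, chr16:91485238-91507441, plus strand), the chain that carries Tyk2, was 7.47, 6.78 and 7.32 FPKM in the vehicle libraries and 6.77, 7.93 and 8.06 FPKM in the imiquimod libraries. These groups overlapped, with means of 7.19 ± 0.363 and 7.58 ± 0.710 FPKM (SD, n = 3 each). The log2 change was 0.07 ± 0.09, a fold of 1.05 with a 95% interval of 0.909 to 1.22 (limma adjusted p = 0.618). Ifnar2 (ENSMUSG00000022971, chr16:91372783-91405589, plus strand), the high-affinity chain that carries Jak1, was 4.91, 5.51 and 4.78 FPKM in vehicle and 7.28, 5.68 and 8.91 FPKM in imiquimod libraries. Imiquimod replicate 2 lay just above the highest vehicle library, and the other 2 imiquimod libraries well above it. Means were 5.06 ± 0.392 and 7.29 ± 1.61 FPKM (SD, n = 3 each), and the log2 change of 0.50 ± 0.16 did not pass (limma adjusted p = 0.0843, and 0.0157 without imiquimod replicate 2). Of the exon bases of Ifnar2, 9.46% are shared with the readthrough gene Gm21970 on the same strand, which was listed at 0 in all libraries.

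Of the type II receptor chains, only Ifngr1 was called. Ifngr1 (ENSMUSG00000020009, chr10:19591949-19610229, plus strand) was 6.81, 7.56 and 8.44 FPKM in vehicle and 10.5, 9.08 and 11.3 FPKM in imiquimod libraries. All 3 imiquimod libraries lay above all 3 vehicle libraries, and means were 7.60 ± 0.818 and 10.3 ± 1.13 FPKM (SD, n = 3 each). The log2 change was 0.43 ± 0.11 (limma adjusted p = 0.0468). This call was lost when vehicle replicate 1, 2 or 3 was left out (limma adjusted p = 0.155, 0.129 and 0.0651) and without imiquimod replicate 1 or 3 (0.106 and 0.122). It passed in 7 of 18 alternative settings, over which the limma adjusted p ran from 0.0247 to 0.155 and the sign stayed positive. Ifngr2 (ENSMUSG00000022965, chr16:91547072-91565623, plus strand), the signalling chain that carries Jak2, was 11.3, 11.3 and 10.3 FPKM in vehicle and 12.6, 10.8 and 11.2 FPKM in imiquimod libraries. Its groups overlapped, and its log2 change of 0.07 ± 0.08 had a fold interval of 0.920 to 1.20 (limma adjusted p = 0.587). That small change had the opposite sign, -0.06, with each library's trend on length and GC content and its mean removed.

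Ratios within a library do not depend on how libraries were scaled to each other. The Ifnar2 to Ifnar1 ratio was 0.657, 0.813 and 0.653 in vehicle and 1.08, 0.717 and 1.11 in imiquimod libraries. Imiquimod replicate 2 fell among the vehicle values, so the groups overlapped (log2 difference 0.43, two-sided exact permutation p = 0.2). The Ifngr2 to Ifngr1 ratio was 1.66, 1.497 and 1.22 in vehicle and 1.21, 1.19 and 0.991 in imiquimod libraries. Here all imiquimod values lay below all vehicle values, by a narrow gap (log2 difference -0.36, exact permutation p = 0.1). With 3 against 3, the smallest p is 0.1, and over the 4 ratios computed, kinases included, every adjusted p was 0.2.

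**Figure D2:**
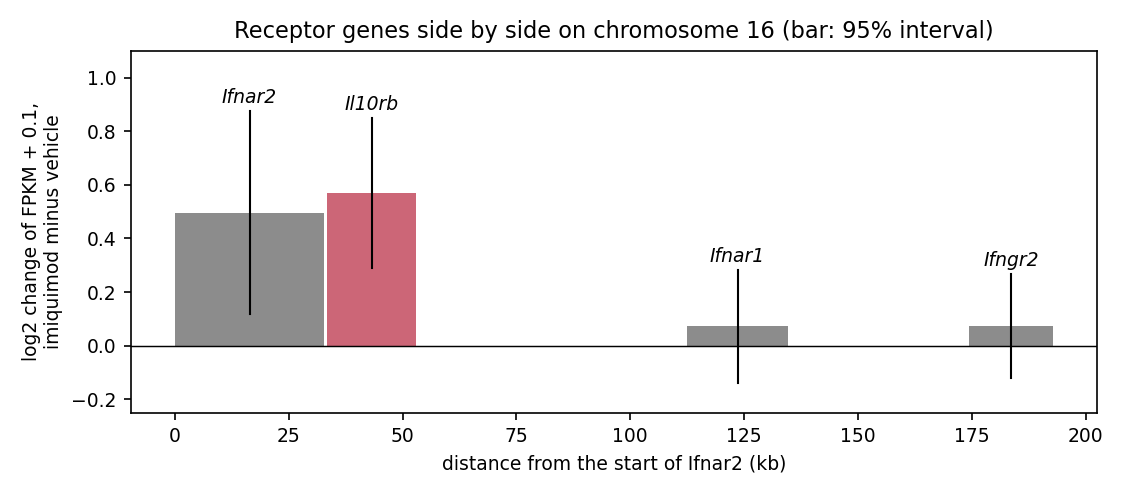
Receptor genes on mouse chromosome 16, each drawn as a block over its span in kb from the start of Ifnar2, with its log2(FPKM + 0.1) change, imiquimod minus vehicle, as the height and the limma 95% interval as a black line. The 4 genes Ifnar2, Il10rb, Ifnar1 and Ifngr2 span 192.8 kb, and Il10rb, in red, is the only 1 of them that passed the test.

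As the map of chromosome 16 shows, 3 of the 4 receptor genes lie within 192.8 kb, on the same strand, together with Il10rb, which encodes a chain shared by the interferon lambda and interleukin-10 receptors. Il10rb starts 33.4 kb from the start of Ifnar2, Ifnar1 at 112 kb and Ifngr2 at 174 kb. Il10rb was 1.87, 1.72 and 2.08 FPKM in vehicle and 2.81, 2.60 and 3.16 FPKM in imiquimod libraries. Il10rb rose by 0.57 ± 0.12 (limma adjusted p = 0.0238), while Ifnar1 and Ifngr2 each stood at 0.07. The differences between these changes were not tested. The Il10rb call was lost when vehicle replicate 1 or 2 (limma adjusted p = 0.0892 and 0.0841) or imiquimod replicate 1 or 3 (0.0577 and 0.0682) was left out. Ifnlr1, the chain specific to interferon lambda, was too low to test, at 0.419, 0.289 and 0.330 FPKM in vehicle and 0.290, 0.267 and 0.245 FPKM in imiquimod libraries.

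The genes whose levels followed Ifngr1 most closely across the 6 libraries were Armc5, Bdnf and Eed. Likeness was the Euclidean distance of log2(FPKM + 0.1) after each gene's vehicle mean was subtracted, and the distances were 0.0923, 0.149 and 0.151. Armc5, for example, was 3.83, 4.03 and 4.66 FPKM in vehicle and 6.00, 5.09 and 6.06 FPKM in imiquimod libraries. The pattern they have in common is a low vehicle replicate 1, a higher vehicle replicate 3 and an imiquimod replicate 2 below the other imiquimod libraries. With 6 libraries, this likeness is a description.

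None of the 3 Janus kinases passed the test. Jak1 (ENSMUSG00000028530, chr4:101152367-101265282, minus strand), which serves both receptors, was 25.0, 26.0 and 25.7 FPKM in vehicle and 20.99, 25.3 and 23.0 FPKM in imiquimod libraries. The groups overlapped through imiquimod replicate 2, and the log2 change was -0.15 ± 0.08, a fold of 0.900 with an interval of 0.792 to 1.02 (limma adjusted p = 0.241). Jak2 (ENSMUSG00000024789, chr19:29251828-29313080, plus strand), the partner of Ifngr2, was 8.60, 8.56 and 9.07 FPKM in vehicle and 9.21, 9.87 and 9.95 FPKM in imiquimod libraries. All imiquimod libraries were above all vehicle libraries, but the log2 change of 0.14 ± 0.06 did not pass (limma adjusted p = 0.187). Tyk2 (ENSMUSG00000032175, chr9:21104068-21131243, minus strand), the partner of Ifnar1, was 2.37, 2.71 and 2.14 FPKM in vehicle and 2.64, 2.57 and 2.89 FPKM in imiquimod libraries. Its groups overlapped, with a log2 change of 0.16 ± 0.11 (limma adjusted p = 0.375). Tyk2 shares 8.07% of its exon bases with the antisense gene 1700084C06Rik, which was listed at 0 in all libraries.

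The kinases were also compared with each other within each library. The Jak2 to Jak1 ratio was 0.344, 0.329 and 0.352 in vehicle and 0.439, 0.390 and 0.433 in imiquimod libraries. Every imiquimod value was above every vehicle value, by 0.30 on the log2 scale (exact permutation p = 0.1), and the difference ran from 0.27 to 0.35 when each library was left out in turn. The Tyk2 to Jak1 ratio was 0.0947, 0.104 and 0.0831 in vehicle and 0.126, 0.101 and 0.126 in imiquimod libraries, with overlap at imiquimod replicate 2 (log2 difference 0.32, exact permutation p = 0.2). Jak3, the kinase restricted mainly to blood cells and attached to the common gamma chain, was 2.02, 2.11 and 1.4999 FPKM in vehicle and 3.13, 2.59 and 3.10 FPKM in imiquimod libraries. It rose by 0.63 ± 0.15 (limma adjusted p = 0.038), and the call was lost when any 1 library other than imiquimod replicate 2 was left out (0.0656 to 0.105).

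Per length of transcript, Jak1 was the most abundant of the 8 tested genes in both groups, at 25.6 ± 0.498 FPKM in vehicle and 23.1 ± 2.16 FPKM in imiquimod libraries (SD, n = 3 each). In vehicle libraries it was followed by Ifngr2, Jak2, Ifngr1, Ifnar1, Ifnar2, Tyk2 and Socs1. Only Ifngr1 and Ifnar1 were neighbours whose values overlapped there. In imiquimod libraries the order was Jak1, Ifngr2, Ifngr1, Jak2, Ifnar1, Ifnar2, Tyk2 and Socs1, and Ifngr2 overlapped Ifngr1, Ifngr1 overlapped Jak2 and Ifnar1 overlapped Ifnar2.

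**Figure D3:**
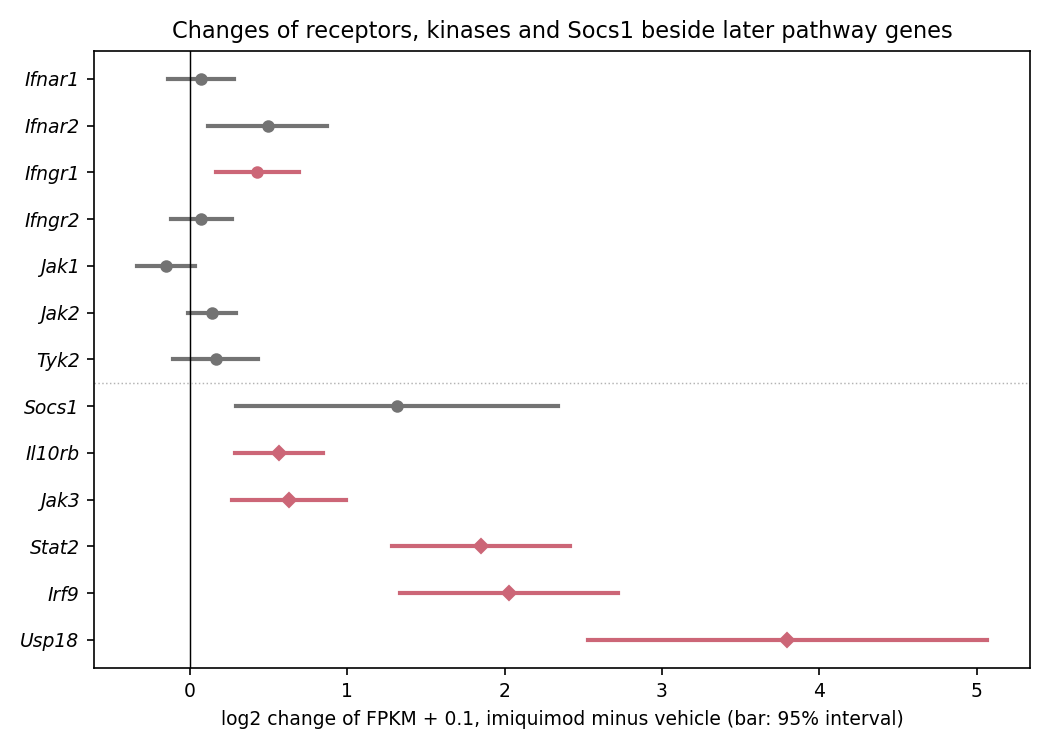
Log2(FPKM + 0.1) change, imiquimod minus vehicle, with its 95% interval from limma, for the 8 tested genes (circles) and for Il10rb, Jak3, Stat2, Irf9 and Usp18 (diamonds), with called genes in red. Of the circles Ifngr1 alone is called and Socs1 has the widest interval, 0.30 to 2.34, while Usp18 and Irf9 lie at 3.80 and 2.03.

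Socs1 (ENSMUSG00000038037, chr16:10782240-10785536, minus strand), which encodes the suppressor of cytokine signalling that inhibits Jak1, Jak2 and Tyk2, had the widest interval of the 8 tested genes. It was 0.525, 0.554 and 0.299 FPKM in vehicle libraries, from 27, 28 and 17 fragments. In imiquimod libraries it was 2.42, 0.723 and 1.11 FPKM, from 145, 47 and 76 fragments. Each imiquimod library was above each vehicle library, and imiquimod replicate 1 was the highest by more than counting error. The exact Poisson 95% intervals were 122 to 171 fragments in replicate 1, 34.5 to 62.5 in replicate 2 and 59.9 to 95.1 in replicate 3, the last 2 of which overlap. They cover counting error only, not the spread between mice. Means were 0.459 ± 0.140 and 1.42 ± 0.888 FPKM (SD, n = 3 each), and the log2 change of 1.32 ± 0.43, 2.49-fold with an interval of 1.23 to 5.05, did not pass (limma adjusted p = 0.0892). Without imiquimod replicate 2 the limma adjusted p was 0.0371, and the log2 change ran from 0.67 to 1.68 over the 18 alternatives. Its vehicle mean is under 0.5 FPKM, so Socs1 entered the test through the imiquimod libraries alone.

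Of the other SOCS genes, which inhibit receptors of several cytokines, none of the 6 tested was called by limma, 1 had an unadjusted p under 0.05, and voom called 0 or, with quality weights, 1. That gene was Socs3, the inhibitor of receptors built on gp130, at 1.07, 0.915 and 1.38 FPKM in vehicle and 3.61, 1.83 and 6.72 FPKM in imiquimod libraries. All imiquimod libraries were above all vehicle libraries, with a log2 change of 1.60 ± 0.43 (limma adjusted p = 0.0509). Socs3 passed in 7 of 18 settings, among them without imiquimod replicate 2 (limma adjusted p = 0.00838). Like Socs1, it was lowest in imiquimod replicate 2 among the imiquimod libraries. Socs2 (log2 change -0.08 ± 0.21), Socs4 (0.02 ± 0.10), Socs5 (-0.04 ± 0.07), Socs6 (0.10 ± 0.12) and Socs7 (-0.03 ± 0.06) did not pass, with limma adjusted p from 0.613 to 0.926. The signs of all of these but Socs6 flipped in some of the settings. Socs5 was the most abundant of the family, at 24.0 ± 0.720 FPKM in vehicle and 23.3 ± 1.46 FPKM in imiquimod libraries (SD, n = 3 each).

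**Figure D4:**
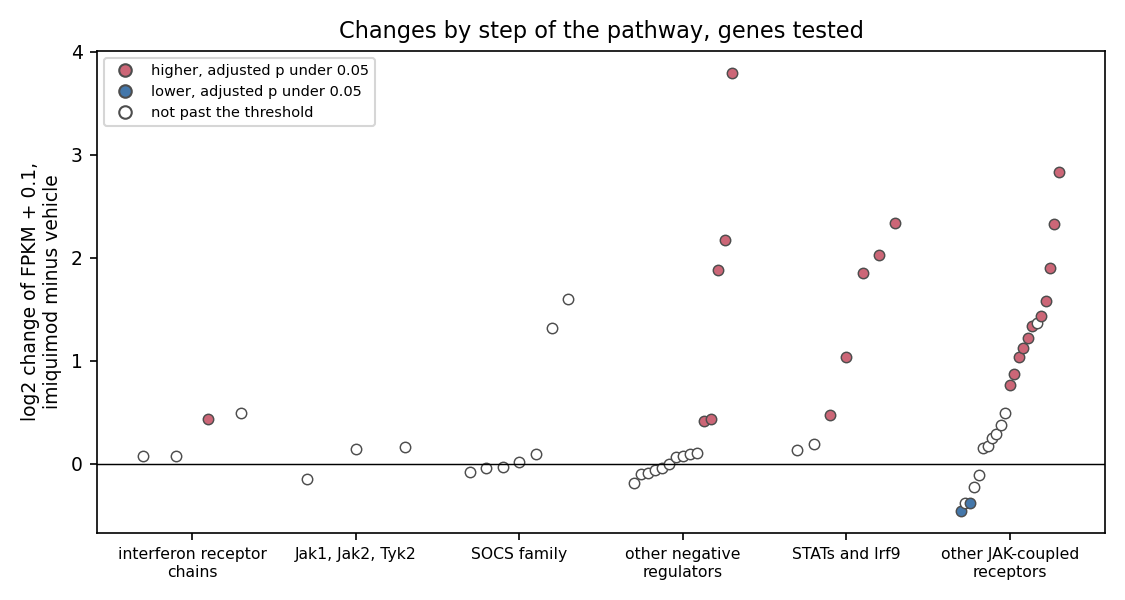
Log2(FPKM + 0.1) change, imiquimod minus vehicle, of every tested gene by step of the pathway (interferon receptor chains, Jak1, Jak2 and Tyk2, the SOCS family with Socs1, other negative regulators, STAT genes with Irf9, other receptors that use Janus kinases), 1 point per gene, red where called higher, blue where called lower and white where not called. The STAT genes and Irf9 have a median of 1.04, the other receptors of 0.77 and the other negative regulators of 0.08.

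Among 15 other negative regulators of Janus kinase signalling, 5 rose and none fell (the plot of changes by step), with a median log2 change of 0.08. The shares over all genes tested were 8.74% higher and 5.34% lower, so few lower calls would be found in a list this short. Usp18, the protease that removes Isg15 and binds Ifnar2 to dampen type I signalling, was 1.74, 9.36 and 5.13 FPKM in vehicle and 76.2, 55.2 and 57.9 FPKM in imiquimod libraries. It rose by 3.80 ± 0.54 (limma adjusted p = 0.00691). Ptpn6, a phosphatase of blood cells and microglia that acts on Janus kinases, rose from 1.95 ± 0.273 to 9.20 ± 1.82 FPKM (SD, n = 3 each; 2.17 ± 0.17, limma adjusted p = 0.00106). Ptprc, the leukocyte common antigen, rose from 0.389 ± 0.0380 to 1.73 ± 0.415 FPKM (1.88 ± 0.22, limma adjusted p = 0.00354), and entered the test through the imiquimod libraries alone. Ptpn1, a phosphatase of Jak2 and Tyk2, rose from 6.51 ± 0.262 to 8.86 ± 0.665 FPKM (0.44 ± 0.08, limma adjusted p = 0.0147), a call lost without vehicle replicate 1 (0.0704) or vehicle replicate 2 (0.0591). The fifth was Sh2b3. Leaving out single libraries gave 3 to 5 genes higher. The count at an unadjusted limma p was 0 lower here too, and voom called none lower.

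Most of the transcription factors downstream of the kinases were called. Of the 7 genes tested among the STAT genes and Irf9, 5 rose and none fell, also at an unadjusted limma p under 0.05 and with voom, and Stat4 was too low to test. Beside these counts, 8.74% of all genes tested were called higher and 5.34% lower. Stat2, the factor of the type I pathway, was 4.04, 7.31 and 4.60 FPKM in vehicle and 21.007, 14.8 and 21.4 FPKM in imiquimod libraries (1.85 ± 0.24, limma adjusted p = 0.00496). Vehicle replicate 2 was the highest vehicle library for Stat2, Irf9 and Usp18, and also for Ifnar2, Ifngr2, Jak1, Tyk2 and Socs1. Its lead over vehicle replicate 1 was slight for Ifngr2 (11.31 against 11.28 FPKM) and Socs1 (28 against 27 fragments). Irf9, the partner of Stat2, rose from 5.14 ± 2.24 to 20.2 ± 3.22 FPKM (2.03 ± 0.29, limma adjusted p = 0.00723). Stat3, the factor of gp130 and interleukin-10 receptors, rose from 9.57 ± 0.329 to 13.3 ± 0.694 FPKM (0.47 ± 0.07, limma adjusted p = 0.00678). Stat2, Irf9 and Stat3 were called in all 18 alternatives. Among the 7 of this group with a RefSeq promoter window, Stat2 and Stat4 hold the core of the interferon-stimulated response element.

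Other receptors that work through Janus kinases moved in both directions. Of 30 listed, 23 were tested, 11 rose, 2 fell and 10 did not pass, with a median log2 change of 0.77. Among all genes tested, 8.74% rose and 5.34% fell, with a median of -0.01. Il2rg, the common gamma chain that carries Jak3, rose from 0.641 ± 0.0967 to 3.64 ± 0.694 FPKM (2.33 ± 0.18, limma adjusted p = 0.00106). Il10ra, the ligand-binding partner of Il10rb for interleukin-10, rose from 2.09 ± 0.192 to 4.44 ± 0.893 FPKM (1.04 ± 0.16, limma adjusted p = 0.00823). Il2rb, the beta chain of the interleukin-2 and interleukin-15 receptors, rose from 0.142 ± 0.0996 to 1.59 ± 0.636 FPKM (2.83 ± 0.43, limma adjusted p = 0.00827), and Il21r from 0.437 ± 0.108 to 1.87 ± 0.155 FPKM (1.90 ± 0.20, limma adjusted p = 0.0028). Il2rb and Il21r are 2 of 4 genes of this list that entered the test through the imiquimod libraries alone, 3 of which were called. The 2 that fell are chains for ciliary neurotrophic factor and leukemia inhibitory factor. Cntfr, the first, went from 46.4 ± 2.96 to 33.7 ± 1.90 FPKM (-0.46 ± 0.07, limma adjusted p = 0.0104, and 0.052 without vehicle replicate 1). Lifr, the second, went from 8.56 ± 0.102 to 6.58 ± 0.630 FPKM (-0.38 ± 0.08, limma adjusted p = 0.0299), a call lost without any 1 of the vehicle replicates (0.0946 to 0.114) or without imiquimod replicate 3 (0.0539). Leaving out single libraries gave 6 to 11 genes higher and 0 to 2 lower.

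**Figure D5:**
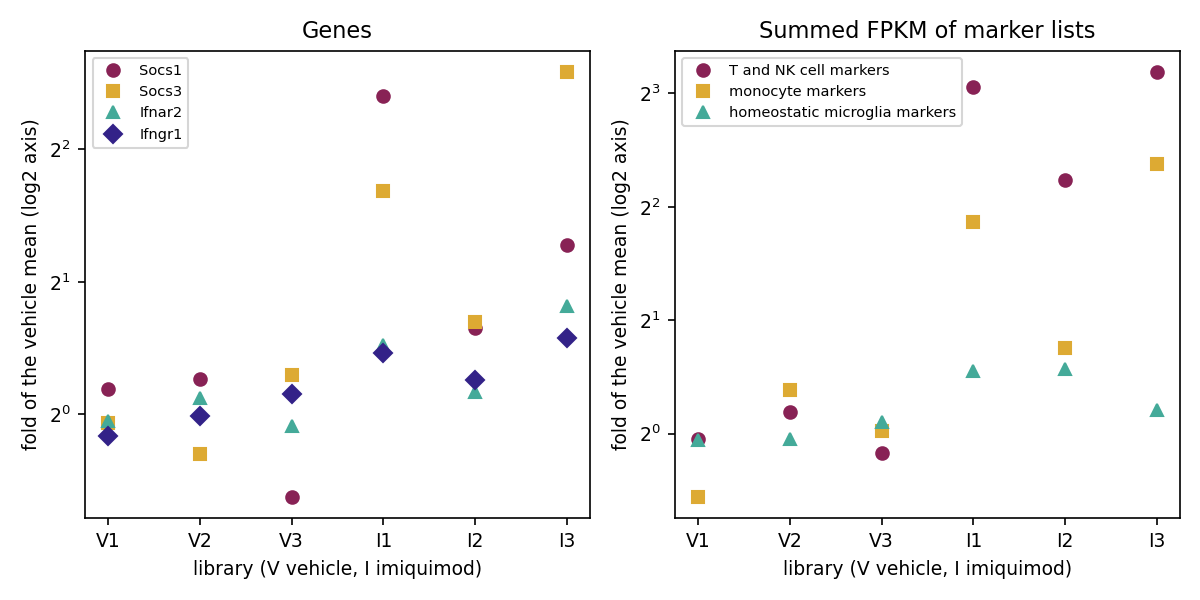
Level in each library as a fold of the vehicle mean on a log axis, for Socs1, Socs3, Ifnar2 and Ifngr1 on the left and for summed marker levels of T and NK cells, monocytes and homeostatic microglia on the right. V1 to V3 are vehicle and I1 to I3 imiquimod libraries, and in I2 Socs1, Socs3, Ifnar2, Ifngr1 and the T and NK cell and monocyte sums are each the lowest of the imiquimod libraries.

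Cell type marker sums differed in how they ranked the imiquimod libraries, as the plot of genes and markers by library shows. The sum of 20 T and NK cell markers was 5.63 to 7.25 FPKM in vehicle and 52.8, 29.8 and 57.8 FPKM in imiquimod libraries, and 8 of the 10 tested rose, against 8.74% of all genes tested. Of these 8, 6 entered the test through the imiquimod libraries alone, so the filter had a part in that count. Gzma (21.1, 10.7 and 26.0 FPKM) and Gzmb (11.6, 4.86 and 11.3 FPKM) made up most of the imiquimod sums. Not every listed marker ranked these libraries as the sum did, and Trac, at 4.62, 4.45 and 2.78 FPKM, was lowest in imiquimod replicate 3. In that list Eomes was at 0 in all vehicle libraries and none was at 0 in all imiquimod libraries. The sum of 10 monocyte markers was 13.4 to 25.6 FPKM against 71.6, 33.1 and 102 FPKM, and 4 of the 9 tested rose, 1 of which entered through the imiquimod libraries alone. Both sums were lowest in imiquimod replicate 2 among the imiquimod libraries, the library in which Socs1, Ifnar2, Ifngr1, Ifngr2 and Tyk2 were lowest too. The 14 homeostatic microglia markers summed to 129 to 143 FPKM in vehicle and 195, 198 and 154 FPKM in imiquimod libraries, with 4 higher and 1 lower. Unlike the 2 sums above, this one was highest in imiquimod replicate 2. Plasmacytoid dendritic cells, the classical source of type I interferon after Toll-like receptor 7, had markers summing to 7.24 to 9.03 FPKM against 9.70 to 11.5 FPKM. Of the 3 tested of 8, Cox6a2 and Lair1 rose, while Siglech was 3.79, 3.42 and 4.52 FPKM in vehicle and 2.04, 2.74 and 0.567 FPKM in imiquimod libraries (-1.32 ± 0.50, limma adjusted p = 0.126). As Siglech is also 1 of the 14 homeostatic microglia markers, its values cannot be assigned to plasmacytoid dendritic cells. The mean of Cox6a2 went from 2.38 to 5.16 FPKM and that of Lair1 from 1.46 to 3.35 FPKM. Whether these 2 rises came from plasmacytoid dendritic cells was not tested. Siglech was lower in every imiquimod than in any vehicle library, though not called, so the 3 tested markers did not share 1 direction. Ly6d, too low to test, had 3, 6 and 2 fragments in vehicle and 1, 2 and 1 in imiquimod libraries, too few to read a difference. Among resident cells, 15 neuron markers summed to 1926 to 2064 FPKM against 1390 to 1817 FPKM, and 10 oligodendrocyte markers to 8246 to 8870 FPKM against 5590 to 7176 FPKM. The part of these cell types in the results on the 10 genes was not tested.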

How the data were processed

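The authors deposited 1 table per library with an FPKM value for each of 54532 Ensembl genes. The submitters' processing notes name mm10, HISAT2 2.0.5, DESeq2 1.16.1 and featureCounts 1.5.0-p3, with no roles. No source used here gives the strand setting or says how multi-mapping reads were counted. Symbols, coordinates and exon lengths (GENCODE M21) matched 54409 identifiers. Fragments per gene were recovered as whole multiples of a library's step in FPKM times exon length (97.4% to 97.6% of values under 1000 fragments, within 0.05). The main test was limma 3.58.1 with a mean-variance trend in R 4.3.3, on log2(FPKM + 0.1), for genes with a mean of at least 0.5 FPKM in either group, with 3 imiquimod against 3 vehicle libraries, no block and Benjamini-Hochberg adjustment over 16513 genes. The fit was tested on simulated data. Other steps used matplotlib 3.10.9, SciPy 1.17.1, NumPy 2.4.6, pandas 2.3.3 and Python 3.11.15. The test of ratios was a two-sided exact permutation test. Named genes were the 10 genes, up to 4 called genes per list and direction with the smallest p, all tested SOCS genes and the 3 genes most like the called one, and any other named gene was chosen after its values were seen. The 10 genes and all lists were chosen with earlier results of these data known. Alternatives were other pseudocounts, filters and scalings, a replicate block, quality weights, each library left out in turn, and voom on the recovered fragments. Values of some single genes are not reported here.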

Additional observations from a re-analysis of the deposited data

How the results depend on the processing

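The planned count tests were not run, because the deposited values are not counts, and voom on recovered fragments, added after seeing the data, called 2587 genes, or 2718 with quality weights, beside 2326 in the main test. Leaving out each library in turn gave 847 to 2986 genes (660 to 1690 higher, 187 to 1296 lower): 847 without vehicle replicate 1, 1022 without vehicle replicate 2, 1010 without vehicle replicate 3, 1552 without imiquimod replicate 1, 2986 without imiquimod replicate 2 and 1260 without imiquimod replicate 3. The count of lower genes was 508 when low genes were kept. Higher genes made up 62.1% of calls (1444 higher, 882 lower), but 44.7% (1268 higher, 1567 lower) with each library's length and GC trend and mean removed, a setting added after seeing the data. That setting put the median log2 change of all genes at -0.06, and no other moved it as far. The cause of these shifts was not tested. Of the 10 genes, the 1 called higher became 0 when low genes were kept, with the length and GC trend removed, with that trend and the library mean removed, with the replicate block, with the block and the trend removed, and with array quality weights. Leaving out single libraries gave 0 to 3 of them higher (3 without imiquimod replicate 2, 0 without any other). No gene of the 10 was called lower in any of the 18 alternatives, and the sign of the change was kept in 143 of 144 fits of the 8 tested genes, all but Ifngr2 in 1. The 4 ratios kept their direction.

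The replicate block gave 1330 calls (894 higher, 436 lower), and 550 lower genes with the length and GC trend removed. Deviations from the group means correlated at 0.02, -0.10 and -0.03 in same-numbered libraries, and at -0.10 to 0.13 in pairs with unlike numbers. The labels give no shared animal, and with 3 libraries a group these correlations cannot exclude a shared batch. The depth of 18172205 to 23196686 fragments limits Ifnb1, Ifng and the other ligands, which had at most 3 fragments.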
